A study of Homo sapiens with 66 samples.

Results

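Cells of AMO1, a human multiple myeloma (MM) line long in laboratory use, were compared after 24 h with NCP26 at 1 µM (3 libraries) and after 24 h with the proteasome inhibitor carfilzomib (CFZ, 3 libraries). The 6 libraries were chosen by their titles from the 66 of the series, 36 of which are of AMO1 cells. NCP26 is an ATP-competitive inhibitor of prolyl-tRNA synthetase (ProRS), the activity of the bifunctional enzyme GluProRS (EPRS1) that loads proline onto its tRNA. The study states a dose for CFZ, but the sample labels do not hold it. As background, 3 AMO1 libraries each with DMSO for 24 h, NCP26 for 6 h and CFZ for 6 h are given beside them. The other AMO1 libraries (DMSO for 6 h, and halofuginone (HFG), halofuginol and NCP22, other compounds directed at ProRS, at 1 µM for 6 h and 24 h) entered the scaling of CPM, the plot of replicate spread and one alternative fit. All these cells carried the wild-type label of the line, and nothing in the labels says whether replicates were separate cultures, so p values measure the spread between these libraries.

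Both compounds act on protein homeostasis at opposite ends. The proteasome degrades ubiquitinated proteins, and when it is blocked, unfolded proteins draw chaperones away from heat shock factor 1 (HSF1), which then switches on chaperone genes. When tRNA is not charged, the kinase GCN2 senses it and phosphorylates eIF2α, which lowers general translation and favours translation of ATF4, the factor of the integrated stress response (ISR) that raises amino acid synthesis, amino acid uptake and tRNA synthetase genes. Myeloma cells secrete large amounts of immunoglobulin and are treated with proteasome inhibitors in the clinic.

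RNA was read as gene counts, and levels are given as CPM, counts scaled to the size of each library. The 6 libraries held 2387603 to 2974887 counts, and 10795 genes entered the test. Differences are log2 fold changes of NCP26 against CFZ, positive where NCP26 was higher, with the standard error (SE) after the ± sign and the adjusted p of edgeR's quasi-likelihood F test with Benjamini-Hochberg adjustment over all tested genes. An adjusted p under 0.05 is called. As a check of the cell type, plasma cell markers were present, with a summed level of 10 genes of 5433 to 7039 CPM with CFZ and 5101 to 5173 CPM with NCP26. Markers of B cells, T cells, monocytes, stromal and erythroid cells, in lists of 4 or 5 genes each, summed to at most 10.8 CPM in any of the 6 libraries, the highest being stromal markers in CFZ replicate 2. In such bulk RNA, fewer cells with a transcript and less of it per cell cannot be told apart.

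The replicates of CFZ were first compared with each other. CFZ replicate 2 stood apart from the other CFZ libraries. The root mean square (RMS) difference of log2 CPM over the 10795 genes was 0.630 between CFZ replicates 1 and 2 and 0.660 between replicates 2 and 3, against 0.358 between replicates 1 and 3. The NCP26 replicates differed from each other by 0.298 to 0.310. The biological coefficient of variation, a measure of replicate spread beyond counting noise, was 0.231 in CFZ and 0.0427 in NCP26. In 76.8% of the genes the CFZ replicates spanned a wider range than the NCP26 replicates. A range above 1 on the log2 scale was found for 1398 genes with CFZ and 236 genes with NCP26, and in 1068 of the 1398 it was replicate 2 that lay apart. It held 2387603 counts, the fewest of the 6, beside 2823149 and 2545675 in CFZ replicates 1 and 3.

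The distance of CFZ replicate 2 ran in part along transcript length. Over 10636 genes with a GENCODE length, its deviation from the other CFZ replicates correlated with log2 length at r = 0.498 across genes, and at 0.178 with GC content, while the deviations of the NCP26 replicates correlated with length at between -0.056 and 0.063. In the shortest decile of genes (median 1090.0 bases) the median deviation of CFZ replicate 2 was -0.62 on the log2 scale, and in the longest decile (median 9761.5 bases) it was 0.48. Cytosolic ribosomal proteins, which have short transcripts, summed to 92843, 48526 and 97044 CPM in CFZ replicates 1, 2 and 3. They summed to 80565, 77385 and 78548 CPM with NCP26, so replicate 2 lay below all 5 other libraries. Olfactory receptor genes, chiefly OR1N1, summed to 167 and 201 CPM in CFZ replicates 1 and 3, to 2396 CPM in replicate 2 and to between 100.5 and 163 CPM with NCP26. What sets this library apart was not tested. For the named genes and lists whose calls changed without CFZ replicate 2, the values without it are given beside the result.

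**Figure D1:**
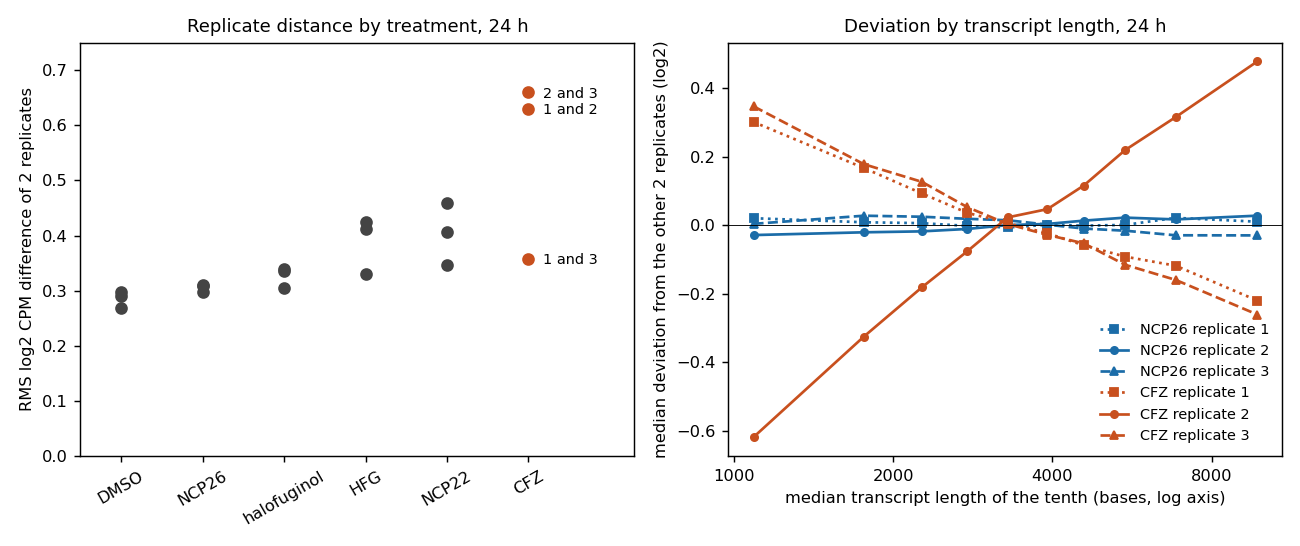
Left, the RMS difference of log2 CPM between 2 replicates (vertical axis) for each AMO1 treatment at 24 h, 3 points per treatment, with the CFZ points named by their replicates. Right, the median deviation of each library from the other 2 of its group (log2, vertical axis) in deciles of genes by transcript length (bases, log axis). CFZ replicate 2 ran from -0.62 in the shortest to 0.48 in the longest decile, and replicates 1 and 3 mirror it because they are compared with it, while the NCP26 lines stay near 0.

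The column names also carry numbers, from which a first and a second set of AMO1 libraries were inferred. In the first set each number from 1 on occurs once, and the numbering then begins again. In the second set the numbers absent from AMO1 libraries lie in columns of another cell line. CFZ replicate 1 belongs to the first set with the DMSO 24 h libraries and all AMO1 6 h libraries, and CFZ replicates 2 and 3 belong to the second with the NCP26 24 h libraries. A fit within the second set, without CFZ replicate 1, called 3978 of 10993 genes (36.2%), 17.3% higher and 18.9% lower with NCP26. Its CFZ group is replicates 2 and 3 only, so the library that stood apart weighs more in it. The NCP26 and DMSO libraries at 24 h lie in different sets, so the set and the treatment cannot be told apart in that comparison. In CFZ against DMSO at 24 h only CFZ replicate 1 shares the set of DMSO, so set and treatment are partly mixed there as well.

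With all 6 libraries, 4736 of 10795 genes differed between NCP26 and CFZ (43.9% called). Of these, 2307 were higher with NCP26 (21.4%) and 2429 lower (22.5%), and 887 and 966 of them differed at least 2-fold. Without CFZ replicate 2, 6676 of 10975 genes were called (60.8%), 30% higher and 30.8% lower. The shares of 21.4% and 22.5%, or 30% and 30.8% without that library, are the background of each list count of NCP26 against CFZ at 24 h below. Of the 4736 genes, 4675 were also called without that library, 0 of them in the opposite direction, and 61 were lost. The SE of HSPA8 was 0.16 with all libraries and 0.05 without replicate 2.

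Heat shock genes had the lowest median of the 24 lists. Of 28 listed HSF1-driven genes 26 were tested, 23 were lower with NCP26 than with CFZ and 1 was higher, with a median log2 fold change of -1.38 against -0.02 over all tested genes. The summed level of the list was 3959, 3903 and 3910.2 CPM with NCP26, 19188, 15525 and 18835 CPM with CFZ and 5817, 5702 and 6067 CPM with DMSO. CFZ replicate 2 was the lowest of the CFZ libraries, and the groups did not overlap. Without it 2 genes were higher and 23 lower, and within the second number set 1 was higher and 21 lower (background 17.3% and 18.9%).

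HSPA1B, an inducible member of the HSP70 chaperones, stood at 44.9, 42.3 and 39.6 CPM with NCP26 and at 2759.8, 2621 and 2526 CPM with CFZ. DMSO libraries held 64.4, 64.5 and 55.95 CPM, and so lay on the side of NCP26. The log2 fold change was -5.95 ± 0.15, adjusted p = 7.79e-07. HSPA1A and HSPA1B encode the same protein, and 73.3% of the 31-mers of HSPA1B occur in other genes of the table, so the split of reads between the copies is uncertain. The same holds to a lesser degree for FTH1, SLC9A3, PRDX1, SLC2A3, SQSTM1, DDIT3 and HVCN1, with between 20.6% and 54.5% of 31-mers shared. HSPA6, which is nearly silent in unstressed cells, had 5.30, 4.23 and 1.21 CPM with NCP26 and 404, 275 and 249.7 CPM with CFZ (-6.42 ± 0.37, adjusted p = 3.00e-05), with 1.61 to 2.22 CPM in DMSO libraries. DNAJB1, the HSP40 partner of HSP70, had 45.2, 44.5 and 49.6 CPM with NCP26, 588, 547 and 594 CPM with CFZ and 79.9, 78.9 and 74.9 CPM with DMSO (-3.62 ± 0.12, adjusted p = 4.44e-06). HSPH1, the HSP110 that recharges HSP70 with ATP, was apart in the same direction, at -3.35 ± 0.12, adjusted p = 6.55e-06.

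HSPA8, the constitutive HSP70, was on opposite sides of DMSO in the treatments. It stood at 274, 265 and 301 CPM with NCP26, 1144, 1066 and 1173 CPM with DMSO and 3939, 3068 and 3857 CPM with CFZ. NCP26 differed from CFZ by -3.68 ± 0.16, adjusted p = 1.24e-05, from DMSO by -2.001 ± 0.048, adjusted p = 8.13e-25, and CFZ differed from DMSO by 1.69 ± 0.14, adjusted p = 1.68e-04. BAG3, which links HSP70 to autophagy, was lower with NCP26, at -2.55 ± 0.14, adjusted p = 2.56e-05, as was HSP90AA1, the inducible HSP90, at -1.97 ± 0.16, adjusted p = 8.89e-05. HSP90AA1 stood at 667 to 708 CPM with NCP26, above its 541 to 610.5 CPM with DMSO, and at 2200.5 to 3037 CPM with CFZ. DNAJB2, a J-domain protein that binds ubiquitin, was the listed gene that went the other way (0.42 ± 0.10, adjusted p = 0.0112). Against DMSO, 22 of 26 tested members were higher with CFZ (background 13.1%) and 6 of 25 were higher and 12 lower with NCP26 (background 29.8% and 30.9%).

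The promoters of these genes are known to hold heat shock elements, repeats of GAA in alternating orientation. The letters GAANNTTC or TTCNNGAA, which read the same on both strands and can overlap each other, were searched in the 250 bases before the start of each gene in RefSeq windows of GRCh38.p14. They occurred in 9 of 24 tested heat shock genes with a window (37.5%), in 8.51% of the 8773 tested genes with a window and in 11.7% of all 27305 genes with a window. The called members with a match and the largest absolute fold changes are shown with 20 bases on each side, 5′ to 3′ along the gene, matches in capitals. Their log2 fold changes were HSPA1B (-5.95 ± 0.15), HSPA8 (-3.68 ± 0.16), HSPA1A (-2.54 ± 0.25) and HSPB1 (-2.12 ± 0.12). HSPB1 is a small heat shock protein.
HSPA1B, chr6:31827613-31827660, plus strand: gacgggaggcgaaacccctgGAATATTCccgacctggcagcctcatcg
HSPA8, chr11:123062159-123062211, minus strand: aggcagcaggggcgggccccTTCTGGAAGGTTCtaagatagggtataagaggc
HSPA1A, chr6:31815417-31815464, plus strand: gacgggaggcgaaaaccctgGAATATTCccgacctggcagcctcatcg
HSPB1, chr7:76302471-76302518, plus strand: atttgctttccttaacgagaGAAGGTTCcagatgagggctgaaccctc
HSPA1B and HSPA1A carry the same match in nearly the same flanks, and in HSPA8 2 matches overlap. HSPA8 holds 4 matches in its 250 bases, and only the stretch nearest the start is shown. Called members without a match or a window are not shown. A match is a stretch of letters, and binding was not measured.

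Among 20 ubiquitin, VCP and autophagy receptor genes, 6 were higher and 8 lower with NCP26 (median 0.016) against 21.4% and 22.5% of all tested genes, so the higher count lies near the background. After leaving out CFZ replicate 2, 8 were higher and 9 lower. NFE2L1, the factor that renews proteasome subunits when the proteasome is blocked, was the highest member, at 976 to 1014 CPM with NCP26 and 235 to 300.2 CPM with CFZ (1.96 ± 0.13, adjusted p = 4.45e-05). SQSTM1, the autophagy receptor p62, did not differ detectably. Its levels were 1614, 1554 and 1570.3 CPM with NCP26 and 1698, 1401 and 1702 CPM with CFZ, against 547 to 564 CPM with DMSO (-0.0075 ± 0.13, adjusted p = 0.967), and both treatments were above DMSO, NCP26 by 1.51 ± 0.038 and CFZ by 1.53 ± 0.12. Without CFZ replicate 2 the difference became -0.10 ± 0.042, adjusted p = 0.0397.

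Of 39 proteasome subunits and assembly factors, 16 were lower and 5 higher with NCP26 than with CFZ (median -0.28), and without CFZ replicate 2 27 were lower and 6 higher (median -0.46). PSMC4, an ATPase of the 19S base, was furthest down at 75.8, 77.7 and 75.6 CPM against 199.6, 165 and 219.9 CPM (-1.34 ± 0.13, adjusted p = 1.99e-04), and PSMD7, a lid subunit, was furthest up at 212, 209.7 and 197 CPM against 134, 85.6 and 133 CPM (0.82 ± 0.17, adjusted p = 0.00603). PSMB4 had 493, 249 and 523 CPM in the CFZ replicates, and its difference of -0.098 ± 0.25, adjusted p = 0.773 became -0.37 ± 0.052, adjusted p = 8.36e-07 without replicate 2. Against DMSO 18 genes of the list were higher and 1 lower with CFZ (background 13.1% and 14%), and without CFZ replicate 2 these were 32 and 1 (background 23.4% and 24.9%). With NCP26 18 were higher and 9 lower than with DMSO, against 29.8% and 30.9% of all genes, so the lower count lies below the background. All 8 subunits of the TRiC/CCT chaperonin, which folds actin and tubulin, were tested, and 5 were lower with NCP26 (median -0.59), 7 without CFZ replicate 2. CCT3 was lowest at -0.85 ± 0.16, adjusted p = 0.00388.

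Genes of the ISR stood higher with NCP26. Of 18 listed transcription factors and feedback genes 16 were tested, 12 were higher with NCP26 and 0 lower (median 1.19), with 11 higher within the second number set (background 17.3%). When CFZ replicate 2 was left out, 13 were higher and 1 lower. DDIT3 (CHOP), a pro-apoptotic factor of the ISR, had 334, 343 and 360.3 CPM with NCP26, 105, 53.3 and 88.99 CPM with CFZ and 88.1, 81.7 and 78.9 CPM with DMSO. The NCP26 libraries lay above all others, and CFZ replicate 2 was the lowest of its group. The difference was 2.07 ± 0.22, adjusted p = 2.92e-04. TRIB3, a pseudokinase that feeds back on ATF4, had 366, 383 and 394 CPM with NCP26 and 101, 80.2 and 103 CPM with CFZ (2.02 ± 0.13, adjusted p = 4.00e-05). GDF15, a secreted stress cytokine, differed most, at 71.1, 67.96 and 87.1 CPM against 12.01, 11.99 and 9.80 CPM (2.75 ± 0.17, adjusted p = 3.30e-05), and its DMSO level of 21.1 to 30.2 CPM lay between the treatments.

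ATF4 mRNA itself did not differ detectably, at 554, 528 and 557 CPM with NCP26 and 567, 469 and 608 CPM with CFZ (0.0071 ± 0.13, adjusted p = 0.969), and DMSO held 677 to 733 CPM. ATF4 is controlled mainly in translation, which these data do not measure. CHAC1, which breaks down glutathione, had 14.4, 17.2 and 24.2 CPM with NCP26 and 7.06, 7.03 and 4.70 CPM with CFZ (1.57 ± 0.28, adjusted p = 0.00272). It was higher with NCP26, as was ATF3, a stress-induced repressor, at 0.43 ± 0.11, adjusted p = 0.0136. ATF3 was above its DMSO level with either compound, by 2.30 ± 0.098 with NCP26 and 1.87 ± 0.13 with CFZ. DDIT4, an inhibitor of mTORC1, was the lowest member at -0.33 ± 0.13, adjusted p = 0.0757, and its difference was called without CFZ replicate 2 (-0.44 ± 0.053, adjusted p = 7.27e-08).

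Of 15 enzymes of amino acid and one-carbon synthesis, 10 were higher and 3 lower with NCP26 (median 0.70), and 10 were higher and 3 lower without CFZ replicate 2. The lower count lies near the background of 22.5% with all libraries and below the 30.8% without that library. CTH, which makes cysteine from cystathionine, had 27.1, 26.99 and 29.9 CPM with NCP26 and 10.95, 5.79 and 10.6 CPM with CFZ (1.62 ± 0.23, adjusted p = 9.89e-04). ASNS, asparagine synthetase, had 238, 229.9 and 222 CPM against 86.5, 76.9 and 87.4 CPM (1.47 ± 0.11, adjusted p = 5.89e-05). SHMT2, the mitochondrial serine hydroxymethyltransferase, stood at 525 to 529 CPM with NCP26, inside its DMSO range of 518 to 539 CPM, and at 263 to 327 CPM with CFZ (0.84 ± 0.12, adjusted p = 9.89e-04). Among the members lower with NCP26 were PYCR1 (-0.52 ± 0.11, adjusted p = 0.00494) and ALDH18A1 (-0.32 ± 0.10, adjusted p = 0.0366), enzymes of proline synthesis, named after their values were seen.

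Of 12 amino acid transporters, 9 were higher and 2 lower with NCP26 (median 0.86). When CFZ replicate 2 was left out, 10 were higher and 2 lower. SLC6A9, a glycine transporter, stood at 47.4, 54.3 and 55.01 CPM against 13.8, 22.3 and 12.9 CPM (1.695 ± 0.21, adjusted p = 4.83e-04), and SLC38A1, a glutamine transporter, at 752 to 819 CPM against 290.1 to 338 CPM (1.34 ± 0.11, adjusted p = 1.05e-04). SLC7A11, the cystine importer, was above its DMSO level of 13.7 to 19.1 CPM with both compounds and higher with NCP26 (73.6, 83.2 and 76.2 CPM) than with CFZ (33.9, 44.7 and 27.8 CPM), by 1.15 ± 0.17, adjusted p = 0.00117. SLC36A4, a proline and tryptophan transporter, went the other way, at 6.55, 8.13 and 7.86 CPM with NCP26 and 32.9, 29.4 and 23.1 CPM with CFZ (-1.91 ± 0.21, adjusted p = 2.83e-04). CFZ was above DMSO for this gene by 1.51 ± 0.19.

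Of 20 cytosolic aminoacyl-tRNA synthetases 10 were higher with NCP26 (background 21.4%), 4 were lower, which is near the 22.5% of all genes, and 6 were not called (median 0.39). After leaving out CFZ replicate 2, 11 were higher and 6 lower. EPRS1, the target of NCP26, had 479, 484 and 491 CPM with NCP26 and 493, 475 and 469 CPM with CFZ, and the groups overlapped (0.028 ± 0.10, adjusted p = 0.841). Its DMSO level was 359 to 382 CPM. WARS1, which charges tryptophan, was furthest up, with 1097, 1053 and 1076 CPM, 189, 179.9 and 172 CPM and 370.4, 362 and 395 CPM in NCP26, CFZ and DMSO libraries (2.59 ± 0.11, adjusted p = 1.24e-05). It was above DMSO with NCP26 (1.52 ± 0.043) and below it with CFZ (-1.06 ± 0.10). VARS1, which charges valine, was furthest down, at 123, 134 and 138 CPM against 252, 328 and 252 CPM (-1.06 ± 0.13, adjusted p = 5.57e-04).

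ATF4 binds with C/EBP proteins to elements with the letters TGATGNAA. Searched on both strands in the same windows, these occurred in 3 of 9 amino acid synthesis genes (33.3%), 2 of 15 ISR genes (13.3%), 2 of 16 synthetases (12.5%) and 0 of 11 transporters, against 1.28% of tested genes and 3.19% of all genes with a window. The 4 called members of these lists with a match and the largest absolute fold changes were AARS1 (1.67 ± 0.11), CHAC1 (1.57 ± 0.28), ASNS (1.47 ± 0.11) and GOT1 (0.68 ± 0.15). AARS1 charges alanine and GOT1 is the cytosolic aspartate aminotransferase. Matches are in capitals. In AARS1, CHAC1 and GOT1 the element lies on the other strand and is printed as its reverse complement.
AARS1, chr16:70289666-70289713, minus strand: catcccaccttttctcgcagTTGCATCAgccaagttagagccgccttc
CHAC1, chr15:40953242-40953289, plus strand: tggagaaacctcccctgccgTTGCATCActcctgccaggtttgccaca
ASNS, chr7:97872449-97872496, minus strand: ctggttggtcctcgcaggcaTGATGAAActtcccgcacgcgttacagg
GOT1, chr10:99430795-99430842, minus strand: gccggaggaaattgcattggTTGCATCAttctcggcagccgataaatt
No match in a window says only that these letters are not in it, as for DDIT3 and TRIB3.

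**Figure D2:**
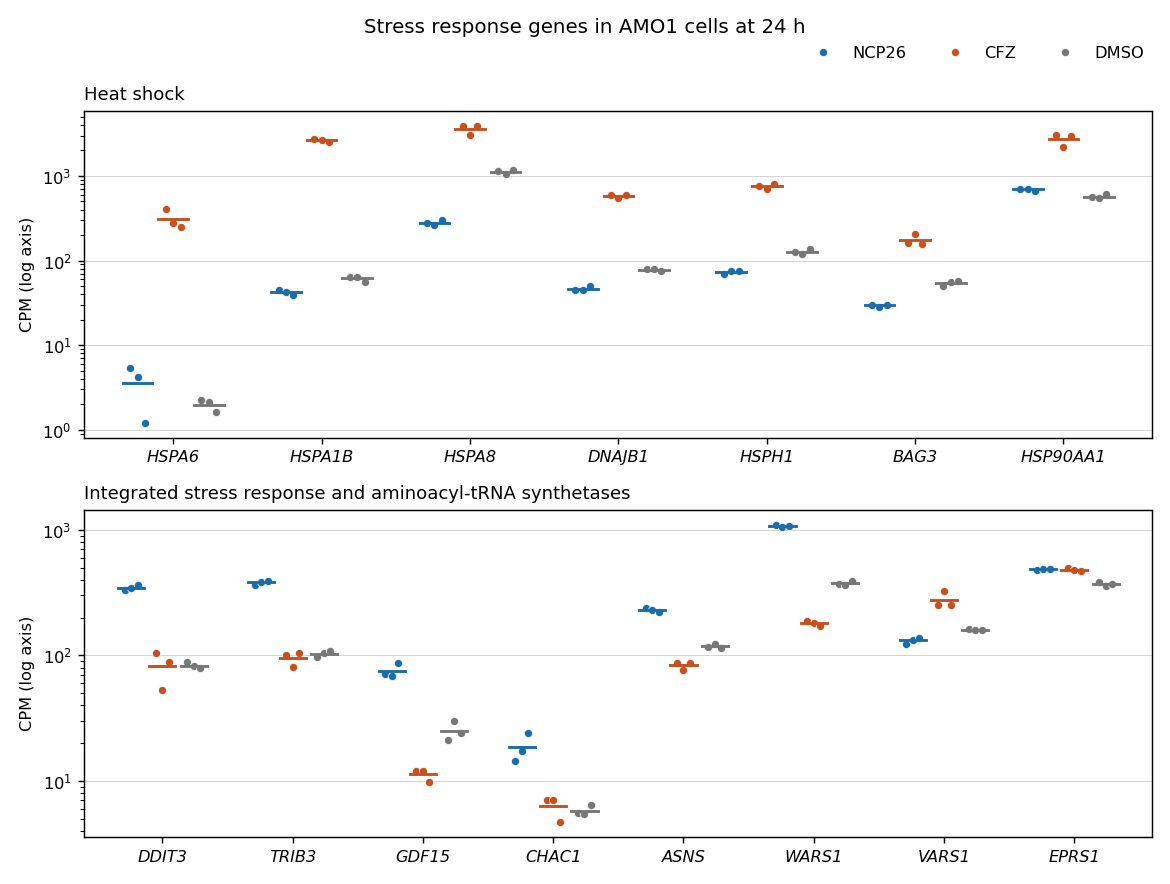
CPM (log axis) of named stress genes in the NCP26, CFZ and DMSO libraries at 24 h, with each point 1 of 3 libraries and each bar the group mean. For HSPA1B the CFZ libraries lie between 2526 and 2759.8 CPM and the NCP26 libraries between 39.6 and 44.9 CPM, whereas for WARS1 the order turns and for EPRS1 the groups overlap.

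In the endoplasmic reticulum (ER) list 12 of 28 genes were lower and 5 higher with NCP26 (median -0.28), and 7 were higher and 16 lower without CFZ replicate 2. HSPA5 (BiP), the main ER chaperone, had 612, 622 and 616 CPM with NCP26, 1360.3, 971 and 1356 CPM with CFZ and 1102, 1114 and 1141 CPM with DMSO (-0.98 ± 0.16, adjusted p = 0.00161). The NCP26 libraries were lowest of all. CFZ replicates 1 and 3 lay above and replicate 2 below every DMSO library, and the difference of CFZ from DMSO, 0.14 ± 0.15, adjusted p = 0.528 with all libraries, was called without replicate 2 (0.28 ± 0.05, adjusted p = 1.06e-04). In the whole list 2 genes were higher and 6 lower with CFZ than with DMSO, and 11 and 10 without that library (background 13.1% and 14%, or 23.4% and 24.9%). ERN1 (IRE1) stood at 762 to 812 CPM with NCP26 and 233 to 377 CPM with CFZ (1.47 ± 0.19, adjusted p = 5.86e-04), and XBP1, the mRNA it splices, at 218 to 239 CPM and 574 to 792 CPM (-1.65 ± 0.15, adjusted p = 1.52e-04). CANX, a membrane chaperone, was at 1988 to 2069 CPM and 1826 to 2068 CPM, with overlapping groups (0.056 ± 0.12, adjusted p = 0.727).

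Of 18 tested NRF2 and oxidative stress genes, 9 were lower and 2 higher with NCP26 (median -0.38), and 3 were higher and 12 lower without CFZ replicate 2. HMOX1, heme oxygenase, was at 115, 119.7 and 105 CPM with NCP26 and 117, 97.2 and 118 CPM with CFZ, with overlapping groups (0.042 ± 0.12, adjusted p = 0.801). Its DMSO level was 22.2 to 22.9 CPM, and it rose above this by 2.32 ± 0.093 with NCP26 and 2.29 ± 0.12 with CFZ. PRDX1, a peroxiredoxin, was the lowest member at 81.4, 77.1 and 81.9 CPM against 421, 234 and 423 CPM (-2.15 ± 0.23, adjusted p = 2.60e-04), and NCP26 lay below DMSO (235 to 284 CPM). The ferritin chains parted, with FTH1 at 1.28 ± 0.11, adjusted p = 9.31e-05 and FTL at -0.68 ± 0.15, adjusted p = 0.0073.

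Of 14 tested AP-1 and immediate early genes, 9 were lower and 2 higher with NCP26 (median -0.62), and 4 were higher and 8 lower without CFZ replicate 2. FOS was at 1.87, 3.25 and 3.02 CPM with NCP26 and 12.01, 28.9 and 12.2 CPM with CFZ (-2.66 ± 0.45, adjusted p = 0.00217), with CFZ replicate 2 the highest. KLF6 was higher with NCP26 by 0.56 ± 0.11, adjusted p = 0.00406. KLF2, a quiescence factor of lymphocytes, was below its DMSO level of 123 to 128 CPM with both compounds, and its difference of 0.63 ± 0.23, adjusted p = 0.0545 became 0.96 ± 0.15, adjusted p = 3.72e-06 without CFZ replicate 2. Of 2 tested metal response genes 1, the zinc exporter SLC30A1, was higher with NCP26 (0.46 ± 0.10, adjusted p = 0.00781). Of 12 NF-kB target genes 6 were higher and 1 lower (7 and 1 without CFZ replicate 2), with TNFAIP3 (A20) at 0.88 ± 0.14, adjusted p = 0.00176, BIRC3 at 0.71 ± 0.11, adjusted p = 0.00123 and TRAF1 at -0.59 ± 0.13, adjusted p = 0.00804.

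Targets of p53 were higher with NCP26 than with CFZ in 17 of 21 tested genes and lower in 0 (median 1.22). Of these, 17 were higher and 1 lower without CFZ replicate 2. The DMSO libraries showed where the levels lay. Against DMSO 17 of 20 were lower with CFZ (background 14%) and 1 higher, while with NCP26 10 were higher and 7 lower, against 29.8% and 30.9% of all genes, so that the lower count lies near the background. CDKN1A (p21), which arrests the cycle, had 313, 286 and 299 CPM with NCP26, 134, 138 and 149 CPM with CFZ and 350.1, 420.2 and 366 CPM with DMSO (1.10 ± 0.11, adjusted p = 1.76e-04). MDM2, the ligase that degrades p53, had 819.8, 857 and 766 CPM with NCP26 and 326, 503 and 343 CPM with CFZ (1.07 ± 0.17, adjusted p = 0.00181), and NCP26 did not differ detectably from DMSO (-0.084 ± 0.043, adjusted p = 0.0922). FAS, a death receptor, was at 68.7, 70.2 and 78.6 CPM and 22.3, 20.3 and 18.4 CPM (1.84 ± 0.13, adjusted p = 5.70e-05), with DMSO at 42.9 to 51.1 CPM between them. GADD45A was the lowest member, at -0.37 ± 0.15, adjusted p = 0.0765, and was called lower without CFZ replicate 2 (-0.51 ± 0.11, adjusted p = 1.84e-04).

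Of 21 tested BCL2 family and death receptor genes, 11 were higher and 0 lower with NCP26 (median 0.65), and 13 were higher and 1 lower without CFZ replicate 2. Both arms of the family were among the higher genes. The listed BAX, BBC3, FAS and TNFRSF10B are also in the p53 list, so the counts of these lists share genes. MCL1, which encodes a survival protein on which many myeloma cells depend, had 2676, 2728 and 2638 CPM with NCP26, 1103, 1090.3 and 1094 CPM with CFZ and 1727, 1740.3 and 1699 CPM with DMSO (1.30 ± 0.12, adjusted p = 1.16e-04), so its mRNA lay on opposite sides of DMSO in the treatments. These data do not measure protein, and the study reports lower MCL-1 protein with NCP26. BCL2, also anti-apoptotic, was higher with NCP26 by 0.82 ± 0.12, adjusted p = 9.73e-04. PMAIP1 (NOXA), the BH3-only partner that antagonises MCL1, had 68.7, 65.4 and 65.6 CPM with NCP26, 34.97, 20.7 and 29.4 CPM with CFZ and 21.8, 23.6 and 22.1 CPM with DMSO (1.23 ± 0.18, adjusted p = 0.00116). BID, another BH3-only member, had overlapping groups and a difference of -0.086 ± 0.22, adjusted p = 0.777. CFZ replicate 2 was its lowest library, and without it BID was called lower with NCP26 (-0.32 ± 0.11, adjusted p = 0.0169).

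Proliferation genes were lower with NCP26. Of 36 G1/S and replication genes 27 were lower and 2 higher (median -0.96), and of 37 G2/M genes 33 were lower and 1 higher (median -1.16). The summed G2/M level was 1192, 1223 and 1208 CPM with NCP26, 2719.9, 2767 and 2701 CPM with CFZ and 3146, 3053 and 3200.5 CPM with DMSO. All 3 NCP26 libraries were below every CFZ and DMSO library. Within the second number set 24 G1/S and 29 G2/M genes were lower with NCP26 (background 18.9%). Without CFZ replicate 2, 32 and 34 were lower (background 30.8%).

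CCNB1 (cyclin B1), the partner of CDK1 in mitotic entry, had 24.7, 24.1 and 25.1 CPM with NCP26, 117, 96.3 and 138 CPM with CFZ and 102, 94.9 and 109 CPM with DMSO (-2.24 ± 0.16, adjusted p = 4.70e-05). PTTG1 (securin) had 13.1, 12.03 and 8.46 CPM against 77.4, 46.7 and 67.04 CPM (-2.50 ± 0.24, adjusted p = 1.80e-04), and PLK1, a mitotic kinase, was lower at -1.56 ± 0.17, adjusted p = 2.71e-04. MKI67, whose long transcript was highest in CFZ replicate 2, had 94.2, 101 and 89.8 CPM with NCP26 and 348, 593 and 318 CPM with CFZ, and the difference of -2.13 ± 0.23 was -1.81 ± 0.066 without that library. CDK1, the mitotic kinase, was at 31.2, 30.2 and 27.8 CPM against 69.6, 34.7 and 57.6 CPM (-0.85 ± 0.24, adjusted p = 0.02). AURKB was the exception, at 25.9 to 34.8 CPM with NCP26 and 17.4 to 21.2 CPM with CFZ (0.60 ± 0.17, adjusted p = 0.0237), both below the 45.5 to 55.95 CPM of DMSO. Among G1/S genes POLD1, the catalytic subunit of DNA polymerase delta, was lowest (-1.58 ± 0.12, adjusted p = 7.72e-05), MCM2 of the replicative helicase was lower at -0.42 ± 0.12, adjusted p = 0.0194, and ORC6 was higher (0.72 ± 0.25, adjusted p = 0.0449).

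Many mitotic genes carry a cell cycle homology region near their start, with the letters TTTGAA. These letters occurred on either strand of the window in 18 of 31 tested G2/M genes with a window (58.1%), in 1 of 30 G1/S genes (3.33%), in 8.28% of tested genes and in 13.6% of all genes with a window. The 4 called members with a match and the largest absolute fold changes were MKI67 (-2.13 ± 0.23), ANLN (-1.83 ± 0.16), BUB1B (-1.64 ± 0.14) and DLGAP5 (-1.61 ± 0.16). ANLN is a scaffold of the cleavage furrow, BUB1B a spindle checkpoint kinase and DLGAP5 a spindle protein.
MKI67, chr10:128126427-128126490, minus strand: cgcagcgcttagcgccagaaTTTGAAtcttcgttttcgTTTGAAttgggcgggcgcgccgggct
ANLN, chr7:36389816-36389861, plus strand: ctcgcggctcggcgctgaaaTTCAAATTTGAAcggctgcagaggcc
BUB1B, chr15:40161026-40161068, plus strand: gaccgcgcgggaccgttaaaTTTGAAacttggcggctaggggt
DLGAP5, chr14:55191669-55191743, minus strand: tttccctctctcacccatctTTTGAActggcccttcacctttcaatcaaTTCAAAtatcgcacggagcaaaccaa
Matches are in capitals, and those on the other strand are printed as the reverse complement TTCAAA. In ANLN and BUB1B the stretch reaches the end of the searched window.

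Histone genes went against the other cell cycle genes. Of 14 replication-dependent histone genes 9 were tested, 8 were higher with NCP26 and 0 lower (median 1.71), and 8 were higher and 0 lower without CFZ replicate 2. H2AC6 had 130.1, 131 and 125 CPM with NCP26, 21.5, 19.02 and 27.1 CPM with CFZ and 51.1, 58.8 and 52.7 CPM with DMSO (2.52 ± 0.14, adjusted p = 2.95e-05), and the linker histone H1-2 had 210.0, 208 and 199 CPM, 54.8, 35.1 and 66.3 CPM and 91.8, 97.1 and 87.8 CPM (1.99 ± 0.20, adjusted p = 2.36e-04). H2AC6 was above DMSO with NCP26 (1.25 ± 0.077) and below it with CFZ (-1.26 ± 0.16). Most mRNAs of this class end without a poly(A) tail, while the libraries were selected for poly(A). The levels may therefore not stand for the whole class, and which forms they cover was not tested. H2BC21, which did not pass the test, was at -0.11 ± 0.23, adjusted p = 0.715.

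**Figure D3:**
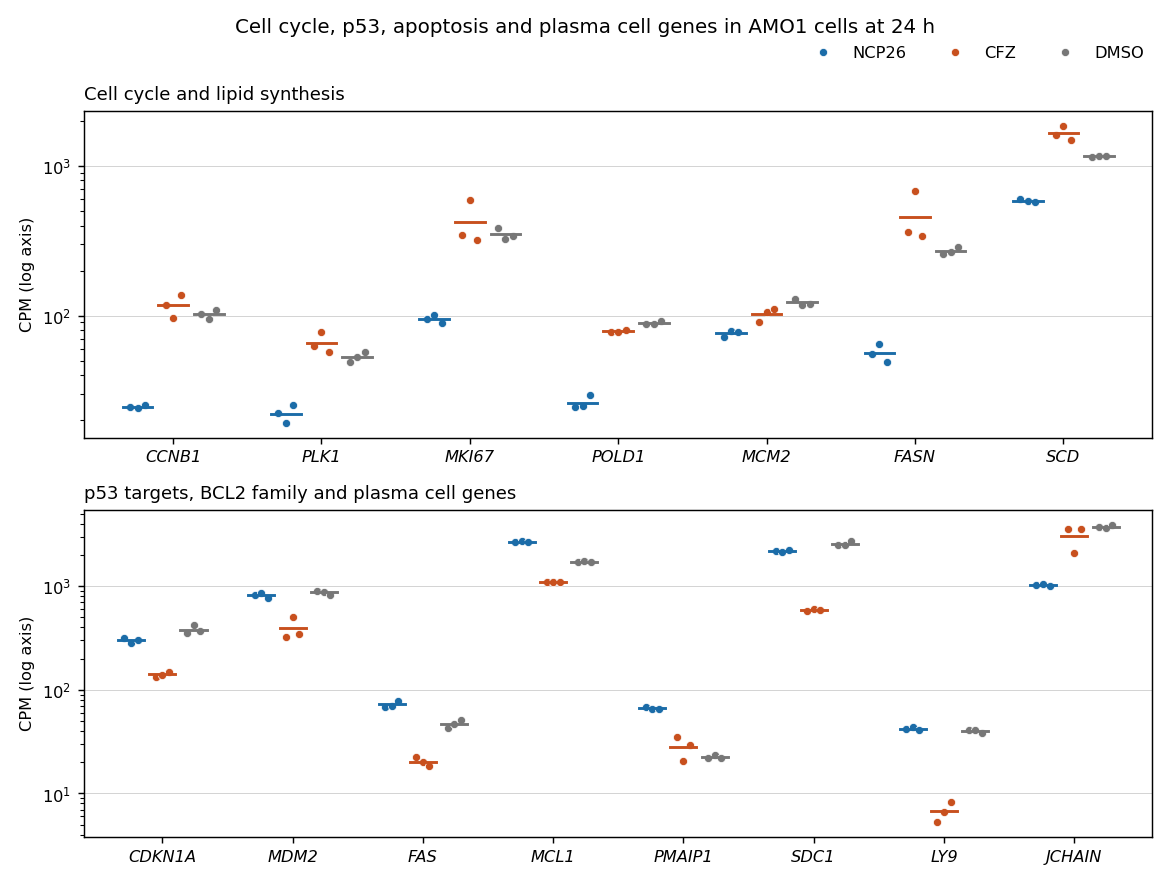
CPM (log axis) of cell cycle and lipid synthesis genes (top) and of p53, BCL2 family and plasma cell genes (bottom) at 24 h, each point 1 library and each bar the mean of 3. For CCNB1 all NCP26 libraries lie between 24.1 and 25.1 CPM and below every CFZ and DMSO library, and for SDC1 the CFZ libraries lie apart at 575 to 606 CPM.

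Genes of plasma cell identity went both ways, with 8 of 23 tested higher and 8 lower with NCP26 (median 0.089), and 10 were higher and 8 lower without CFZ replicate 2. SDC1 (CD138), the plasma cell surface marker, had 2172, 2133 and 2234 CPM with NCP26, 575, 606 and 585 CPM with CFZ and 2466, 2516 and 2719 CPM with DMSO (1.90 ± 0.12, adjusted p = 3.30e-05). Against DMSO, CFZ was at -2.12 ± 0.12 and NCP26 at -0.23 ± 0.036. LY9, a SLAM family receptor, was also lowest with CFZ, at 41.5, 43.9 and 40.8 CPM with NCP26, 5.30, 6.62 and 8.23 CPM with CFZ and 40.7, 41.1 and 38.4 CPM with DMSO (2.66 ± 0.19, adjusted p = 4.70e-05). JCHAIN, which joins polymeric immunoglobulins, was lowest with NCP26, at 1020.1, 1043 and 1011 CPM with NCP26, 3553, 2067 and 3549.9 CPM with CFZ and 3692, 3644 and 3907 CPM with DMSO (-1.57 ± 0.22, adjusted p = 8.33e-04).

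Of the regulators, POU2AF1, a B-lineage coactivator, was at 310.5, 323 and 320.1 CPM with NCP26 and 560.2, 798 and 583 CPM with CFZ (-1.01 ± 0.15, adjusted p = 0.00123), and TCF3, a helix-loop-helix factor of B-lineage cells, at 389, 358 and 409.6 CPM and 536, 558 and 537 CPM (-0.48 ± 0.11, adjusted p = 0.00772). IRF4 overlapped, at 553, 543 and 540.2 CPM and 487, 581 and 484 CPM (0.089 ± 0.12, adjusted p = 0.564), and was called without CFZ replicate 2 at 0.17 ± 0.049, adjusted p = 0.00375. PIM2, a survival kinase, was at 0.044 ± 0.11, adjusted p = 0.766 and PRDM1 (BLIMP1) at -0.27 ± 0.17, adjusted p = 0.213, so that neither difference was detectable. MYC was lower with NCP26, at 222, 242 and 224 CPM against 398, 407 and 387 CPM with CFZ and 421, 415 and 431 CPM with DMSO (-0.78 ± 0.10, adjusted p = 6.79e-04). Of 10 tested members of the MYC network 1, the antagonist MXI1, was higher (1.22 ± 0.10, adjusted p = 1.08e-04) and 3 were lower. Without CFZ replicate 2, 5 were higher and 4 lower. The counts of lower genes lie near the background of 22.5% with all libraries and 30.8% without that library.

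Ribosome genes depended on CFZ replicate 2. Of 69 cytosolic ribosomal protein genes 0 were higher and 1 lower with NCP26 (median -0.045) with all libraries. Without CFZ replicate 2, 4 were higher and 55 lower (median -0.32). RPLP0 was at 2774, 2598 and 2634 CPM with NCP26 and 3381, 1992 and 3566 CPM with CFZ, and its difference went from -0.15 ± 0.22, adjusted p = 0.61 to -0.38 ± 0.038, adjusted p = 3.35e-09. RPS15, at 413, 412 and 421 CPM against 1013, 539 and 1029 CPM, was called in both fits (-1.04 ± 0.23, adjusted p = 0.00788). Of 22 ribosome biogenesis factors 15 were lower with NCP26 and 0 higher (median -0.71), and 20 were lower without CFZ replicate 2. RRP12 was lowest (-1.46 ± 0.19, adjusted p = 6.75e-04). NPM1, a nucleolar chaperone, was at 1268, 1259.7 and 1257 CPM against 2201, 1158 and 2204 CPM, and went from -0.55 ± 0.24, adjusted p = 0.0944 to -0.80 ± 0.041, adjusted p = 5.35e-15.

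Sterol and fatty acid synthesis genes were lower with NCP26 in 20 of 22 cases and higher in 1 (median -0.72), and 1 was higher and 19 lower without CFZ replicate 2. FASN, fatty acid synthase, had 55.5, 64.7 and 49.3 CPM with NCP26, 359.6, 676 and 341 CPM with CFZ and 259, 266 and 285 CPM with DMSO (-3.01 ± 0.28, adjusted p = 1.49e-04), and -2.63 ± 0.077 without CFZ replicate 2, its highest library. SCD, which desaturates fatty acids, had 576 to 601 CPM against 1498 to 1864 CPM (-1.49 ± 0.13, adjusted p = 1.05e-04), and SC5D of sterol synthesis was the member higher with NCP26 (0.81 ± 0.19, adjusted p = 0.00843). Of 29 hypoxia and glycolysis genes 9 were lower and 4 higher (median -0.18), beside 22.5% and 21.4% of all genes, and 17 and 6 without CFZ replicate 2 (background 30.8% and 30%). ADM (adrenomedullin) was at 47.7, 49.4 and 51.7 CPM against 305, 213 and 268 CPM (-2.39 ± 0.15, adjusted p = 4.00e-05), the glucose transporter SLC2A3 at 333 to 362 CPM against 109 to 131 CPM (1.58 ± 0.12, adjusted p = 6.22e-05) and GAPDH at -0.86 ± 0.16, adjusted p = 0.00361.

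Among called genes with a mean of at least 10 CPM and groups that did not overlap, the 10 highest with NCP26 against CFZ were BCAT1, HVCN1, TRPM8, SLC9A3, DHRS2, PKHD1, ARHGAP15, CALHM1, PPFIBP2 and ZNF608, with log2 fold changes from 3.14 to 4.13. BCAT1, the cytosolic enzyme that transaminates branched-chain amino acids, had 35.6, 40.3 and 32.9 CPM with NCP26, 2.12, 1.24 and 2.74 CPM with CFZ and 17.02, 18.9 and 14.9 CPM with DMSO (4.13 ± 0.25, adjusted p = 3.47e-05). The proton channel gene HVCN1 had 39.3, 35.1 and 33.9 CPM, 2.12, 1.65 and 2.74 CPM and 20.4, 14.2 and 19.9 CPM in the same order (4.04 ± 0.22, adjusted p = 2.95e-05). Against DMSO, CFZ was at -3.02 ± 0.29 for BCAT1 and -3.03 ± 0.29 for HVCN1, and NCP26 at 1.11 ± 0.14 and 1.01 ± 0.14. TRPM8, a cold-sensing ion channel gene, had 28.4, 26.01 and 26.3 CPM with NCP26, 0.784 to 2.47 CPM with CFZ and 1.61 to 3.07 CPM with DMSO (3.89 ± 0.29, adjusted p = 6.22e-05). By the same rule the 10 lowest were HSPA6, HSPA1B, LY6H, HSPA8, DNAJB1, HSPH1, CD8B, ENC1, GJA1 and ADAM19. LY6H had 1.56, 2.60 and 3.02 CPM with NCP26, 38.1, 26.9 and 30.97 CPM with CFZ and 10.4, 15.1 and 12.5 CPM with DMSO (-3.71 ± 0.27, adjusted p = 5.83e-05), and GJA1, the gap junction protein connexin 43, 2.81, 3.58 and 3.63 CPM against 28.97, 26.5 and 37.6 CPM (-3.19 ± 0.24, adjusted p = 6.28e-05).

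Some genes were called on opposite sides of DMSO. Each value rests on the same DMSO libraries, so the comparisons are not independent. With NCP26 higher and CFZ lower, the clearest were DHRS2 (1.34 ± 0.12 and -2.42 ± 0.28), SLC9A3 (1.68 ± 0.19 and -2.15 ± 0.48) and H2AC6, given above. With NCP26 lower and CFZ higher they were HSPA8, CD8B (-1.84 ± 0.29 and 1.46 ± 0.22) and ADAM19 (-1.68 ± 0.17 and 1.45 ± 0.18). ADAM19 had 9.67, 11.1 and 7.56 CPM with NCP26, 77.7, 104 and 67.8 CPM with CFZ and 34.4, 29.8 and 28.2 CPM with DMSO. Over all genes, 6547 of 10787 were called between NCP26 and DMSO (60.7%) and 2886 of 10674 between CFZ and DMSO (27%). The CFZ count was 5220 of 10820 (48.2%) without CFZ replicate 2.

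The same compounds were compared at 6 h, where 4444 of 10591 genes were called (42%), 2137 higher (20.2%) and 2307 lower (21.8%) with NCP26. At this time NCP26 replicate 1 stood apart, with 15581 detected genes against 13577 and 13636 in replicates 2 and 3. Its cytosolic ribosomal protein genes summed to 130834 CPM, against 92681 and 88743 CPM. Without it 4952 genes were called at 6 h. What sets it apart was not tested. The change of the difference from 6 h to 24 h was then tested as an interaction in 12 libraries, and 2637 of 11090 genes passed (23.8%), 1279 upward (11.5%) and 1358 downward (12.2%). Without NCP26 6 h replicate 1, 2389 genes passed. Samples of the early time were stored frozen until the next day and those of the late time were held on ice, by the methods of the study. For NCP26 the number set follows the time as well, and for CFZ it does so in replicates 2 and 3. Time, storage and set therefore cannot be told apart. The heat shock difference was larger at 6 h, with 25 of 26 genes lower with NCP26 and a median of -2.91, and it shrank in 20 genes by the interaction test. BAG3 was apart by -5.68 ± 0.14 at 6 h and -2.55 ± 0.14 at 24 h.

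The ISR genes did not stand higher as a list at 6 h. Of 16 genes 4 were higher and 7 lower with NCP26 (median -0.084), against 20.2% and 21.8% of all genes. The higher count lies near that background. By 24 h the difference moved upward in 13, against 11.5% of all genes. TRIB3 was at 303 to 316 CPM with NCP26 and 301 to 343 CPM with CFZ at 6 h (-0.04 ± 0.088, adjusted p = 0.738). WARS1 turned, from -1.07 ± 0.088, adjusted p = 2.61e-06 at 6 h to 2.59 ± 0.11 at 24 h. Of 37 G2/M genes 11 were higher and 5 lower at 6 h (median 0.16, background 20.2% and 21.8%). CCNB1 was at -0.046 ± 0.12 before it reached -2.24 ± 0.16. Histone genes were higher with NCP26 at both times, 11 of 11 at 6 h (background 20.2%).

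HMOX1 and CDKN1A had the largest upward changes of genes with a mean of at least 10 CPM. HMOX1 had 8.22, 12.2 and 10.4 CPM with NCP26 and 343, 363.1 and 391 CPM with CFZ at 6 h (-5.13 ± 0.13, adjusted p = 2.07e-11), and at 24 h the groups overlapped, a change of 5.15 ± 0.19, adjusted p = 9.56e-10. CDKN1A had 67.7, 69.8 and 68.6 CPM with NCP26 and 761, 684 and 755 CPM with CFZ at 6 h (-3.41 ± 0.098), so that the CFZ level, above NCP26 at 6 h, was below it at 24 h, a change of 4.49 ± 0.13, adjusted p = 9.58e-11. MDM2 turned in the same way, by 2.20 ± 0.20, and TNFRSF10D, a decoy receptor of TRAIL, by 3.53 ± 0.25, adjusted p = 7.77e-07. BCAT1 did not differ detectably at 6 h (0.12 ± 0.19) and changed by 3.98 ± 0.37.

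The 5 largest downward changes at such levels were all in genes that CFZ replicate 2 set apart. OR1N1, an olfactory receptor gene, had 122, 93.3 and 154 CPM with NCP26 at 24 h and 161, 2367 and 192 CPM with CFZ. Its change from 6 h to 24 h was -5.18 ± 1.27 with all libraries and -2.82 ± 0.71, adjusted p = 0.0066 without CFZ replicate 2. RNF222 had 28.4, 26.01 and 42.3 CPM with NCP26 and 44.5, 574 and 53.7 CPM with CFZ, and a change of -5.35 ± 1.24, or -3.17 ± 0.72, adjusted p = 0.00338 without that library. The CFZ levels were 51.2, 755 and 62.7 CPM for KCNK2, a potassium channel gene, 21.5, 341 and 32.1 CPM for SCARF2 and 16.2, 179 and 16.1 CPM for FEZF2. Their changes of -5.04 ± 1.27, -4.98 ± 1.32 and -5.21 ± 1.37 became -2.70 ± 0.72, -2.69 ± 0.81 and -3.11 ± 0.96. All 5 were called in either fit. At 24 h the difference of OR1N1 went from -2.86 ± 0.96 to -0.51 ± 0.11 and that of RNF222 from -2.77 ± 0.93 to -0.59 ± 0.16. Without CFZ replicate 2 the changes of OR1N1 and RNF222 therefore rest mostly on the 6 h libraries. NCP26 replicate 1 stood apart at 6 h. Leaving out that library alone kept the direction and the call of all 10 named changes, upward and downward. No fit left out both NCP26 6 h replicate 1 and CFZ replicate 2. Its part in the values without CFZ replicate 2 was therefore not tested.

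The genes of widest range within CFZ were LRRC63, AMIGO3, ANKHD1-EIF4EBP3, RASA4B and ARHGEF33. LRRC63 had 10.6, 1317 and 0.784 CPM in the CFZ replicates and was called with all libraries (-6.62 ± 2.13, adjusted p = 0.0352) but not without replicate 2 (-0.42 ± 0.51, adjusted p = 0.491). ANKHD1-EIF4EBP3, a readthrough locus, had 3.18, 212 and 5.49 CPM with CFZ, and its difference turned from -1.83 ± 1.21, adjusted p = 0.249 to 2.22 ± 0.31, adjusted p = 7.69e-07 without that library. RASA4B had 18.4, 0 and 16.1 CPM, AMIGO3 38.5, 48.8 and 0 CPM and ARHGEF33 44.2, 83.1 and 2.35 CPM, so for AMIGO3 and ARHGEF33 it was CFZ replicate 3 that was lowest. RASA4B (0.59 ± 0.18, adjusted p = 0.00569) and ARHGEF33 (-1.43 ± 0.51, adjusted p = 0.0175) were called without CFZ replicate 2, which they were not with all libraries. For AMIGO3, RASA4B and ANKHD1-EIF4EBP3, 99.5%, 81.96% and 77.96% of the 31-mers occur in other genes of the table, so their split of reads is uncertain.

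**Figure D4:**
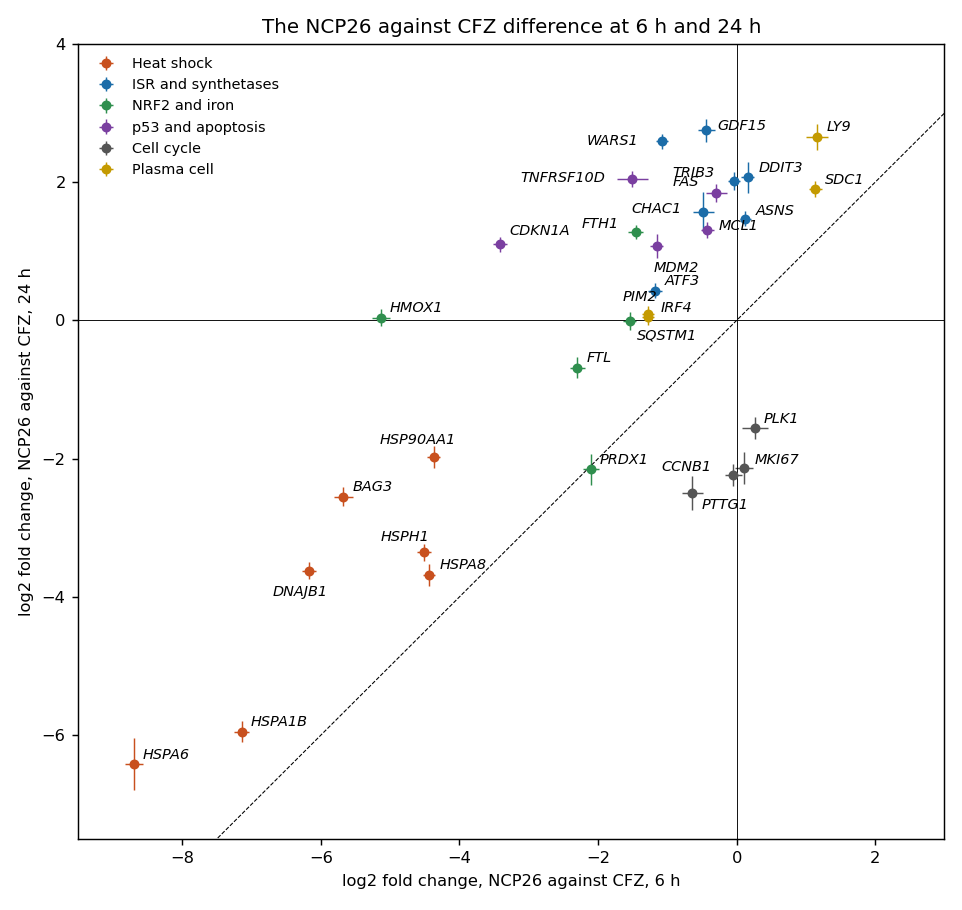
Log2 fold change of NCP26 against CFZ at 6 h (horizontal axis) and at 24 h (vertical axis) for named genes, with bars for the SE and a dashed line where both times are equal. Heat shock genes lie low at both times, CCNB1 lies at -0.05 at 6 h and -2.24 at 24 h, and CDKN1A moves from -3.41 to 1.10.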

How the data were processed

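The authors deposited whole-number counts per gene, made with kallisto (version not given in the sources used here) from reads of poly(A)-selected, directional libraries. The submitters' processing notes name hg19 and the study's methods name GRCh38, and the counts carry no coordinates. How transcript estimates became whole numbers per gene is not given in the sources used here. Library columns were matched to samples by title.

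Genes passing filterByExpr (minimum count 10, minimum total 15) were tested in R 4.3.3 with edgeR 4.0.16, using TMM scaling and the F test of its quasi-likelihood fit, with p values adjusted after Benjamini and Hochberg and called under 0.05. The contrast held only the 6 libraries, without a replicate block. The SE is the size of the log2 fold change over the root of its F value. The fit shares its estimate of spread between both groups and across genes. The SE of a gene therefore also reflects other genes and the wider CFZ group, not only its own replicates. CPM used TMM factors over 36 AMO1 libraries. Alternatives were DESeq2 1.42.0 size factors and Wald test, limma 3.58.1 voom with sample weights, no filter, one fit over all AMO1 libraries, the replicate block, GC and length offsets, and leaving out each library. The length offset was added after the data were seen. The fit of the 24 h contrast was tried on simulated counts with known folds. These had the same spread in both groups, so they did not cover the wider spread of CFZ. Figures were drawn with matplotlib 3.10.9 in Python 3.11.15.

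Members and gene lists were chosen with earlier results of these data known. Named were the 10 highest and 10 lowest called genes with a mean of at least 10 CPM and groups that did not overlap, the highest, lowest and most abundant member of each list, anchor genes of each pathway, the 5 widest in CFZ, the 5 highest and 5 lowest in the change with time, and the 3 highest and 3 lowest with opposite calls against DMSO. Other genes are named as chosen by their promoter match or after their values were seen. Shared sequence was counted as 31-mers of GENCODE v44 transcripts found in other genes of the table, with 19299 of 20167 gene identifiers matched. Promoters came from the RefSeq table of GRCh38.p14, which had a window for 14960 genes of the table. A depth of 2387603 to 2974887 counts a library limits low genes: 3 counts, about 1 CPM, is the most that a count of 0 allows, for counting error only. Results on some genes are not reported here.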

Additional observations from a re-analysis of the deposited data

Results flagged for a closer look

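The test of the change of the NCP26 against CFZ difference between 6 h and 24 h called 2637 genes, and of these the 5 largest changes in each direction at a mean of at least 10 CPM stand out. The difference moved upward by 5.15 for HMOX1, 4.49 for CDKN1A, 3.98 for BCAT1, 3.64 for WARS1 and 3.53 for TNFRSF10D on the log2 scale. It moved downward for RNF222 (-5.35), FEZF2 (-5.21), OR1N1 (-5.18), KCNK2 (-5.04) and SCARF2 (-4.98), all of which were highest in CFZ replicate 2 at 24 h. Without that library these 5 changes lay between -3.17 and -2.69 and were still called by edgeR. No fit left out both that library and NCP26 6 h replicate 1, which also stood apart. With voom sample weights and all libraries, 2 of the 10 changes in either direction were no longer called. The time points also differed in storage, and in the number set for NCP26 and for CFZ replicates 2 and 3. The part of either in these changes was not tested.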

How the results depend on the processing

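The counts of calls and the CFZ spread gave 73 values within a set limit, 1.5 times for counts, and 6 beyond it, all for CFZ against DMSO. The limit is wide, so values within it can still differ much from those reported. The NCP26 against CFZ count at 24 h of 4736 was 3251 to 6676 when single libraries were left out, the highest without CFZ replicate 2. It was 5426 with the length offset, 4256 with the DESeq2 Wald test, 6548 with all AMO1 libraries in one fit and 6528 with voom. The deviations of same-numbered NCP26 and CFZ libraries at 24 h correlated at 0.026, 0.023 and -0.075, and those of unlike numbers at between -0.094 and 0.112. In each gene the CFZ replicate farthest from the middle value was named, however narrow the range. This was replicate 2 in 6704 of 10795 genes, against 1918 and 2173 for replicates 1 and 3. CFZ replicate 2 so shapes the CFZ deviations. These correlations therefore cannot decide whether replicate numbers pair the samples. A replicate block called 4320 genes. The CFZ against DMSO count of 2886 became 5200 with all AMO1 libraries in one fit and 5078 with voom, and ran from 1537 without DMSO replicate 2 to 5220 without CFZ replicate 2. The genes below had differences near 0 or wide CFZ replicates and changed sign in the NCP26 against CFZ contrast. With the GC offset they were CANX at -0.094, RPLP0 at 0.0083, EPRS1 at -0.11, SQSTM1 at 0.19 and AMIGO3 at 0.0047. With all AMO1 libraries in one fit it was ATF4 at -0.0046. Without the filter it was SQSTM1 at 0.0068. With the length offset it was SQSTM1 at 0.029. With voom weights they were CCT2 at -0.012, H2BC21 at 0.068, ATF4 at -0.074, HMOX1 at -0.037, AMIGO3 at 0.65 and ANKHD1-EIF4EBP3 at 2.01. When single libraries were left out, values ran for AMIGO3 from -0.91 to 0.25, ANKHD1-EIF4EBP3 from -2.41 to 2.22, ATF4 from -0.10 to 0.089, BID from -0.32 to 0.083, CANX from -0.0012 to 0.095, CCT2 from -0.056 to 0.28, H2BC21 from -0.28 to 0.12, HMOX1 from -0.052 to 0.098, PSMB4 from -0.37 to 0.086, RPLP0 from -0.38 to 0.00034 and SQSTM1 from -0.10 to 0.039. The cause was not tested. Of the other values of named genes at 24 h, 1578 kept sign and call, 44 gained a call and 61 lost it. List medians moved by less than the spread between replicates in 313 cases and by more in 23. That spread includes CFZ replicate 2, so it is a wide limit. The GC offset gave 7 of the 23 moves and 8 of the 61 lost calls of named genes. Across 10636 genes the log2 fold change of NCP26 against CFZ at 24 h correlated with GC content at r = -0.225. Some list medians and calls therefore depend on the handling of GC content. Depth limits genes of a few CPM, where single counts set the value.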

Other observations

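Other letters searched in the RefSeq promoter windows also differed between lists. The E2F letters TTTCCCGC or TTTGGCGC, on either strand, occurred in 12 of 30 tested G1/S and DNA replication genes with a window (40%), against 3.19% of the 8773 tested genes with a window. The ER stress response element occurred in 7 of 24 ER chaperone, ERAD and UPR genes (29.2%), against 0.148% of tested genes. The CCAAT box occurred in 24 of 31 G2/M genes (77.4%) and 20 of 24 ER genes (83.3%), against 36.1% of tested genes. It is contained in the ER stress response element. It was also in 8 of 9 histone genes (88.9%) and 13 of 16 sterol genes (81.2%), but in 0 of 10 NF-kB genes. The antioxidant response element was in 3 of 13 NRF2 genes (23.1%), 6 of 17 ubiquitin list genes (35.3%) and 12.1% of tested genes. The metal response element was in 0 of 2 metal response genes, against 27.4% of tested genes. Neither was most frequent in the list named for it. These are counts of letters and binding was not measured.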
